A study of Mus musculus with 4 samples.

Results

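The genes described here are 10 markers of eosinophils, basophils and mast cells, chosen by symbol from the 23284 genes of the authors' deposited gene table. The 3 eosinophil genes are Prg2, Epx and Il5ra, and the 7 basophil and mast cell genes are Mcpt8, Prss34, Cpa3, Fcer1a, Ms4a2, Gata2 and Hdc. All 10 were found, and the authors tested all 10. RNA came from mouse bone marrow neutrophils of 2 groups, 2 Srf KO samples and 2 WT samples, which the labels call mature and which were gated on Gr1, on the 7/4 antigen and on side scatter, each high. Srf encodes serum response factor, a transcription factor of the actin cytoskeleton and of immediate-early genes. How Srf was deleted, in which cells, and the strain, age and sex of the mice are not given in the sources used here, nor is it said whether each sample was a separate animal. The tables hold 1 pooled FPKM value (fragments per kilobase of transcript, scaled to the mapped fragments of the library) per genotype, so no value per sample, read depth or spread between replicates can be given.

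Eosinophils, basophils and mast cells are the granulocytes of allergy and of defence against parasites. Eosinophils store basic proteins and a peroxidase in their granules and depend on interleukin 5. Basophils and mast cells carry the high-affinity IgE receptor, and when IgE on that receptor is cross-linked they release histamine and proteases. In mice, basophils are told from tissue mast cells by the proteases they make: Mcpt8 and Prss34 are basophil proteases, whereas chymases and tryptases fill the granules of mast cells. None of these cells is a target of the sort, though all share progenitors with neutrophils in the marrow.

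Of the 10 genes, 8 were higher in Srf KO, 1 was lower and 1 did not pass the authors' test, at an adjusted p of at most 0.05. Over the 12634 genes tested, 17.7% were called higher and 17.8% lower, 35.5% in either direction. The median log2 fold of the 10 genes, Srf KO over WT, was 1.18, against 0.08 over all tested genes. The 6 basophil and mast cell genes other than Hdc were all called higher, by 2.26-fold to 4.29-fold. The eosinophil genes had smaller folds, with Epx 2.07-fold higher, Prg2 1.54-fold higher and Il5ra not called. That order did not hold for Epx once folds were adjusted for their trend with transcript length. Its adjusted log2 fold was 0.95, against 0.88 for Prss34 and 0.81 for Ms4a2. Hdc went the other way, with a lower level in Srf KO. In bulk RNA such as this, more or fewer cells of a type cannot be told apart from more or less RNA per cell.

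**Figure D1:**
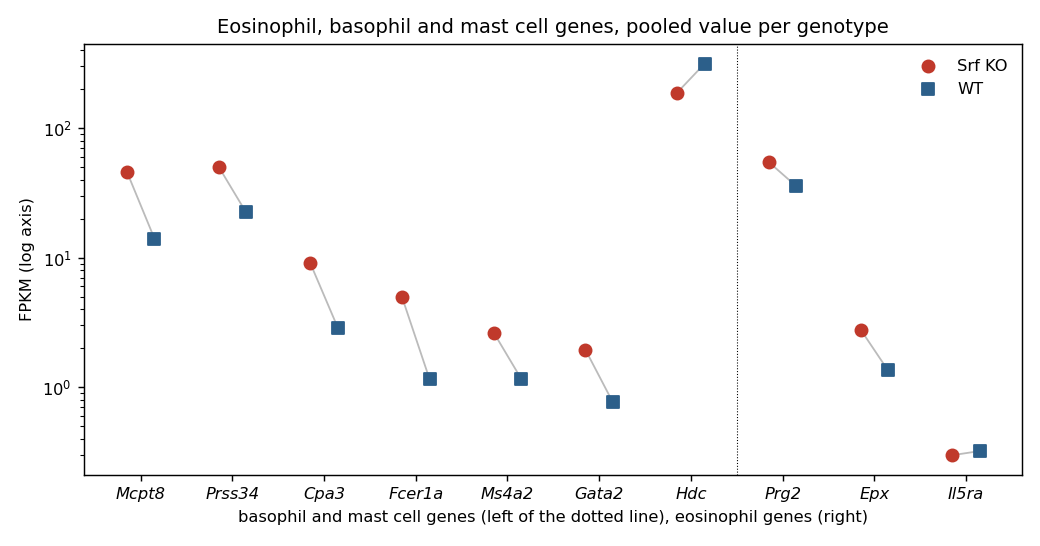
Pooled FPKM of each gene on a log axis, Srf KO as circles and WT as squares, with basophil and mast cell genes left of the dotted line and eosinophil genes right of it. All 6 basophil and mast cell genes other than Hdc, and also Prg2 and Epx, lie higher in Srf KO, while Hdc is the most abundant of the 10 in both genotypes and lies lower in Srf KO.

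The proximal promoters of the basophil and mast cell genes other than Gata2 are shown first. They were searched for GATA motifs since GATA2 is a transcription factor of these lineages and its gene is among the genes described. RefSeq (GRCm38.p6) gave promoters for 9 of the 10 genes, 10 windows in all because Gata2 has 2 annotated starts. Each sequence below is the 250 bases before the RefSeq start, 5′ to 3′ on the strand of the gene, and capitals mark a GATA hexamer (the letters GATA with A or T before them and A or G after them, on either strand).
Cpa3, chr3:20242182-20242431, minus strand: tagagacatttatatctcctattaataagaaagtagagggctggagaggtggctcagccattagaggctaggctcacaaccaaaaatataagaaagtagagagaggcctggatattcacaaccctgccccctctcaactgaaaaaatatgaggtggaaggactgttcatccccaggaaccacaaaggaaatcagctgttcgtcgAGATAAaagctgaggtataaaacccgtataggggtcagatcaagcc
Prss34, chr17:25298144-25298393, plus strand: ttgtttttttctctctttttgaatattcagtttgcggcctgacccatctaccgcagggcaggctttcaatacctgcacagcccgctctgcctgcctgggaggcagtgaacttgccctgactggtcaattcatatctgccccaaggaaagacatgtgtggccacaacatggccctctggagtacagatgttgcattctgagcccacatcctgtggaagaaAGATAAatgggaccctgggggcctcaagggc
Fcer1a, chr1:173227230-173227479, minus strand: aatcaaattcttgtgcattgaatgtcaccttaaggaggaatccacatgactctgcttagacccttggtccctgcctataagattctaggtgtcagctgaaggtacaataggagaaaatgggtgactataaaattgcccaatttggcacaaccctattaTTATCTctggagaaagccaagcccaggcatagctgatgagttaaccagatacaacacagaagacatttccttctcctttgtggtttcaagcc
Ms4a2, chr19:11623720-11623969, minus strand: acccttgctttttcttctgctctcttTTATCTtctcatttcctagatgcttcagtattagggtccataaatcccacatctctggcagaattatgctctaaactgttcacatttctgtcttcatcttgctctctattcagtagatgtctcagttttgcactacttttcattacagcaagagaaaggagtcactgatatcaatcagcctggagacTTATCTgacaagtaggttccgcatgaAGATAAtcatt
Mcpt8, chr14:56085198-56085447, minus strand: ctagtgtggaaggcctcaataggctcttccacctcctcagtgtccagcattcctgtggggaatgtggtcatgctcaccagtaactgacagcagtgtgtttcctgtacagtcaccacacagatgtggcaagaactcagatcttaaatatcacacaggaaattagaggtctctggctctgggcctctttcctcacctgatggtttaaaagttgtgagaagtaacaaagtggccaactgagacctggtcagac
Hdc, chr2:126618679-126618928, minus strand: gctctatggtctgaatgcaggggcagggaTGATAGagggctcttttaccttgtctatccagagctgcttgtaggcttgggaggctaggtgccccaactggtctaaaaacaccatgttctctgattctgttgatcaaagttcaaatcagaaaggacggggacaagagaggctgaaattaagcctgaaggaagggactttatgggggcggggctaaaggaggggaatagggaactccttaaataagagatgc

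A GATA hexamer was present in 6 of the 10 windows, against 17.8% of the 11274 promoters of tested genes and 26.5% of all 32851 RefSeq promoters. The promoters of tested genes cover 8888 genes, and the 10 windows cover 9. Those 9 genes were chosen with earlier results of these data known, and the motif because Gata2 is among them. The 6 windows are therefore a description, and the share was not tested. The Cpa3 match began 46 bases before the start and the Prss34 match 31 bases before it, both as AGATAA on the strand of the gene. Ms4a2 held 3 matches, the nearest 11 bases before the start, and the Fcer1a match lay on the opposite strand with its first base 92 bases before the start. Hdc, the gene that fell, had a TGATAG 221 bases before its start, and Il5ra an AGATAA at 74 bases. No GATA hexamer lay in these windows of Mcpt8, Epx or Gata2, so of the genes called higher that have a window, Cpa3, Prss34, Fcer1a and Ms4a2 held a hexamer there and the others did not. No window of the members held a CArG box, the motif that SRF binds, which occurred in 1.25% of the promoters of tested genes. At so low a share, 10 windows are too few for that absence to be informative. These matches describe letters in a short window only, and no binding was measured. Whether GATA2 had a part in the changes was not tested.

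The serine proteases of basophils were, after Prg2, the most abundant of the genes that rose. Mcpt8 encodes mast cell protease 8, which in mice is made by basophils. It lies on mm10 chromosome 14, 56082164 to 56085197, minus strand (ENSMUSG00000022157.8, 5 exons). Mcpt8 stood at 46.02 FPKM in Srf KO and 14.04 FPKM in WT. The rise was 3.28-fold, a log2 fold of 1.71 ± 0.23 (± here and below gives a standard error, obtained by dividing the authors' fold by their test statistic), with an adjusted p of 4.58e-12 in the authors' deposited table. Its log2 fold exceeded those of 96.9% of the tested genes.

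Prss34, also known as mouse mast cell protease 11, is a trypsin-like protease of basophils. The gene is on chromosome 17, 25298394 to 25300161, plus strand (ENSMUSG00000056399.2, 5 exons). Prss34 was at 50.4 FPKM in Srf KO and 22.3 FPKM in WT, 2.26-fold higher (log2 fold 1.18 ± 0.21, adjusted p = 2.75e-07 in the authors' deposited table). The ratio of Mcpt8 to Prss34, both per length, was 0.913 in Srf KO and 0.629 in WT. That shift in the ratio was not tested.

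Cpa3 encodes carboxypeptidase A3, a metalloprotease of the granules of mast cells and basophils and of their progenitors. It lies on chromosome 3, 20215616 to 20242181, minus strand (ENSMUSG00000001865.2, 11 exons). Cpa3 reached 9.05 FPKM in Srf KO against 2.88 FPKM in WT. This 3.15-fold rise (log2 fold 1.65 ± 0.26, adjusted p = 9.3e-09 in the authors' deposited table) was close in size to that of Mcpt8. The ratio of Mcpt8 to Cpa3 was 5.09 in Srf KO and 4.88 in WT, so these 2 genes kept nearly the same proportion.

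The 2 genes specific to the high-affinity IgE receptor rose as well. Fcer1a encodes the alpha chain, which binds IgE (chromosome 1, 173221271 to 173227229, minus strand, ENSMUSG00000005339.10, 5 exons). Fcer1a was at 4.95 FPKM in Srf KO and 1.15 FPKM in WT. With a 4.29-fold rise (log2 fold 2.10 ± 0.32, adjusted p = 3.2e-09 in the authors' deposited table), it had the largest fold of the 10 genes, above 98.1% of the tested genes.

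Ms4a2 encodes the beta chain, a membrane-spanning subunit that amplifies the signal of the receptor (chromosome 19, 11617193 to 11623643, minus strand, ENSMUSG00000024680.12, 7 exons). Ms4a2 was at 2.63 FPKM in Srf KO and 1.16 FPKM in WT, 2.27-fold higher (log2 fold 1.19 ± 0.34, adjusted p = 0.00295 in the authors' deposited table). Folds in this comparison varied with transcript length, and adjusted for that trend the log2 fold of Ms4a2 was 0.81 and its call ended. The alpha to beta ratio was 1.88 in Srf KO and 0.997 in WT. The signalling gamma chain, Fcer1g, is shared with other Fc receptors and is expressed by neutrophils themselves. By the authors' deposited table Fcer1g stood at 2034 FPKM in Srf KO and 1443 FPKM in WT (log2 fold 0.50 ± 0.19, adjusted p = 0.0335), far above the levels of the other 2 chains. Its call ended with the length adjustment too (log2 fold 0.13).

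Gata2 encodes a zinc finger factor of mast cells, basophils, eosinophil precursors and blood stem cells. It lies on chromosome 6, 88198664 to 88207032, plus strand (ENSMUSG00000015053.14, 6 exons). Gata2 was the least abundant of the genes that rose, with 1.94 FPKM in Srf KO and 0.761 FPKM in WT. The rise was 2.55-fold (log2 fold 1.35 ± 0.29, adjusted p = 4.16e-05 in the authors' deposited table). Only 17.5% of the tested genes had a lower FPKM than Gata2 in WT, and 27.3% in Srf KO.

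Hdc encodes histidine decarboxylase, the enzyme that makes histamine. It is used as a marker of basophils and mast cells, and in mouse marrow it is also expressed by granulocytic myeloid cells. The gene lies on chromosome 2, 126593668 to 126618665, minus strand (ENSMUSG00000027360.5, 12 exons). Hdc stood at 188 FPKM in Srf KO and 315 FPKM in WT, 1.68-fold lower in Srf KO (log2 fold -0.75 ± 0.19, adjusted p = 0.000588 in the authors' deposited table). Its WT level was above that of 98.3% of tested genes, and above that of Mcpt8, Prss34 or Cpa3 in either genotype.

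Because of its abundance, Hdc decides the direction of the summed level. The 7 basophil and mast cell genes summed to 303 FPKM in Srf KO and 357 FPKM in WT, a ratio of 0.848, and Hdc made up 62.0% of the sum in Srf KO and 88.2% in WT. Without Hdc the other 6 summed to 115 FPKM in Srf KO and 42.3 FPKM in WT, a ratio of 2.72. These sums have no test, since each genotype has 1 value.

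Among the eosinophil genes, Prg2 was by far the most abundant. Prg2 encodes major basic protein, the crystalline core of the eosinophil granule, which basophils can also express. It is on chromosome 2, 84980461 to 84983632, plus strand (ENSMUSG00000027073.5, 6 exons). Prg2 was at 54.6 FPKM in Srf KO and 35.5 FPKM in WT, 1.54-fold higher (log2 fold 0.62 ± 0.20, adjusted p = 0.0102 in the authors' deposited table). That is a smaller rise than those of the basophil and mast cell genes other than Hdc, and 78.0% of tested genes had a lower fold. Adjusted for transcript length, the fold of Prg2 was 0.24 on the log2 scale and its call ended.

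Epx encodes eosinophil peroxidase, a haem enzyme of the granule matrix (chromosome 11, 87863998 to 87875536, minus strand, ENSMUSG00000052234.2, 13 exons). Epx was at 2.78 FPKM in Srf KO and 1.34 FPKM in WT, 2.07-fold higher (log2 fold 1.05 ± 0.28, adjusted p = 0.000969 in the authors' deposited table). The ratio of Prg2 to Epx was 19.6 in Srf KO and 26.4 in WT.

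Il5ra encodes the alpha chain of the interleukin 5 receptor, the growth and survival receptor of eosinophils (chromosome 6, 106710379 to 106749037, minus strand, ENSMUSG00000005364.11, 13 exons). Il5ra was the least abundant of the 10 genes, at 0.298 FPKM in Srf KO and 0.321 FPKM in WT. Its log2 fold of -0.11 ± 0.35 did not pass the test (adjusted p = 0.841 in the authors' deposited table). Together the 3 eosinophil genes summed to 57.7 FPKM in Srf KO and 37.2 FPKM in WT, a ratio of 1.55, with Prg2 making up 94.7% of the sum in Srf KO and 95.5% in WT. Whether the basophil and eosinophil ratios differ was not tested. The ratio of Mcpt8 to Prg2 was 0.843 in Srf KO and 0.395 in WT.

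**Figure D2:**
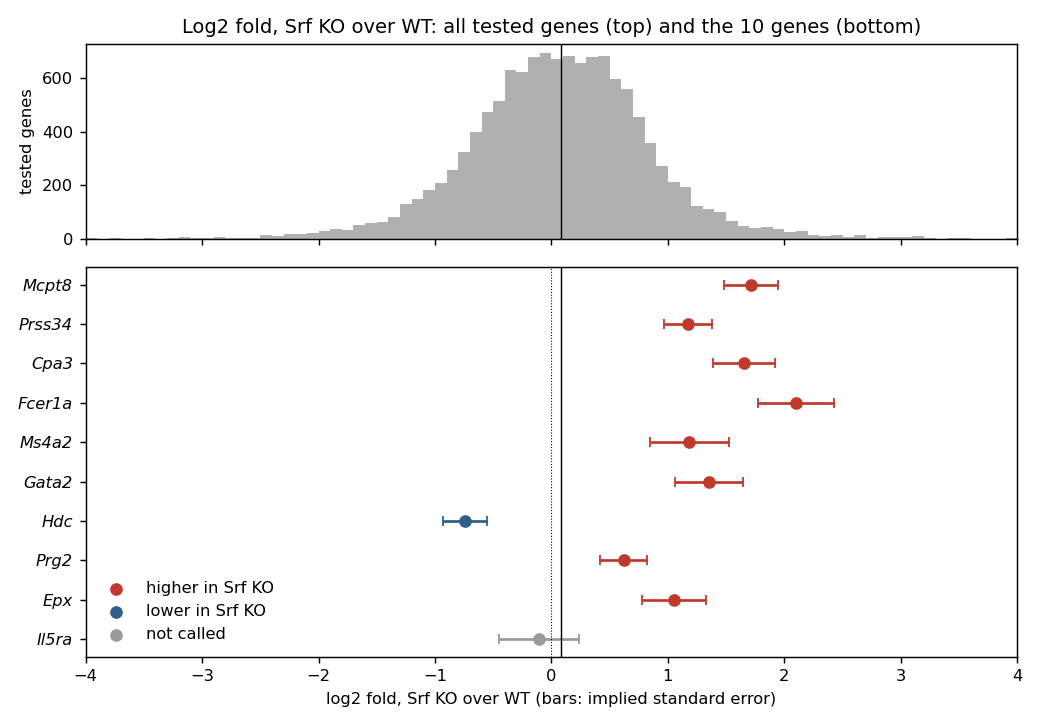
Top, number of tested genes by log2 fold (Srf KO over WT) between -4 and 4, leaving out 21 genes beyond that range. Tested genes at 0 FPKM in a genotype have no log2 fold and are left out too. Bottom, the log2 fold of each of the 10 genes with the implied standard error as bars, coloured by the authors' call. The solid line is the median of the tested genes, 0.08, and the 8 genes called higher lie from 0.62 for Prg2 to 2.10 for Fcer1a, with Hdc at -0.75.

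Each of the 10 genes had a locus that overlapped no other gene in the table and a single listed isoform. The isoform, transcription start and coding sequence tables therefore repeated the same FPKM values. In those 3 tables the authors left Mcpt8, Prss34 and Cpa3 untested, so 5 genes were called higher and 1 lower there. The background of higher calls was 13.1% in the isoform table, 15.1% in the start group table and 14.4% in the coding sequence table, and that of lower calls 14%, 16.1% and 15.8% in the same order. With a 2-fold minimum, 7 of the genes were called higher, against 7.16% of tested genes, and 0 lower, against 6.45%. Short transcripts tended to have higher folds in this comparison, the running median of the fold ranging from -0.32 to 0.38 over length. Adjusted for that trend, 6 of the genes were called higher (14.6% of tested genes) and Hdc lower (18.4% of tested genes). The 2 calls that ended were those of Prg2, with an adjusted p of 0.373, and Ms4a2, with an adjusted p of 0.0524.

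Mcpt8 and Prss34 sit in clusters whose mast cell protease genes were close to 0 here. Mcpt8 belongs to the chymase and granzyme cluster of chromosome 14. The neighbours within 100 kb of Mcpt8 that encode mast cell proteases, Mcpt1, Mcpt2, Mcpt4 and Mcpt9, were at no more than 0.0376 FPKM in either genotype. On the other side of Mcpt8, 14.7 kb away, lies Ctsg, the cathepsin G gene of neutrophil primary granules, picked out after its values were seen. Ctsg stood at 220.2 FPKM in Srf KO and 101 FPKM in WT (log2 fold 1.13 ± 0.19, adjusted p = 3.66e-08 in the authors' deposited table).

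Of 9 chymase and tryptase genes of mast cells, 5 were listed at 0 in both genotypes and the authors tested none. The highest of them, the chymase gene Cma1, was at 0.141 FPKM in Srf KO and 0.0310 FPKM in WT. Beside Prss34 on chromosome 17, the tryptase genes Tpsab1 and Tpsb2 were listed at 0 in both genotypes, and Tpsg1 at 0 FPKM in Srf KO and 0.0133 FPKM in WT. The mast cell transcripts of these clusters were thus near 0, while Mcpt8 and Prss34, in the same clusters, were among the more abundant genes described.

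Ms4a2 lies 5.85 kb from Ms4a3, a gene of granulocyte progenitors named after its values were seen, which was at 127 FPKM in Srf KO and 49.1 FPKM in WT (log2 fold 1.37 ± 0.19, adjusted p = 3.08e-11 in the authors' deposited table). All 4 tested neighbours of Ms4a2 within 100 kb were called higher. Epx shares its region with Mpo, the related peroxidase gene of neutrophil precursors, at 314 FPKM in Srf KO and 179 FPKM in WT (log2 fold 0.81 ± 0.19, adjusted p = 0.000211 in the authors' deposited table). Prg3, the paralog of Prg2 4.58 kb away, was at 3.13 FPKM in Srf KO and 1.97 FPKM in WT and was not called (log2 fold 0.67 ± 0.32, adjusted p = 0.0917 in the authors' deposited table). Prg2 had 2 tested neighbours called higher, Slc43a3 and Ssrp1, and Prss34 had 2 called lower, Unkl and Baiap3, all 4 named after their values were seen. Around Cpa3, Gata2, Il5ra and Hdc, none of the tested neighbours was called, and Fcer1a had no tested neighbour. Over the 10 genes, 27 neighbours within 100 kb were tested, of which 8 were called higher and 2 lower, against 17.7% higher and 17.8% lower over all tested genes.

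**Figure D3:**
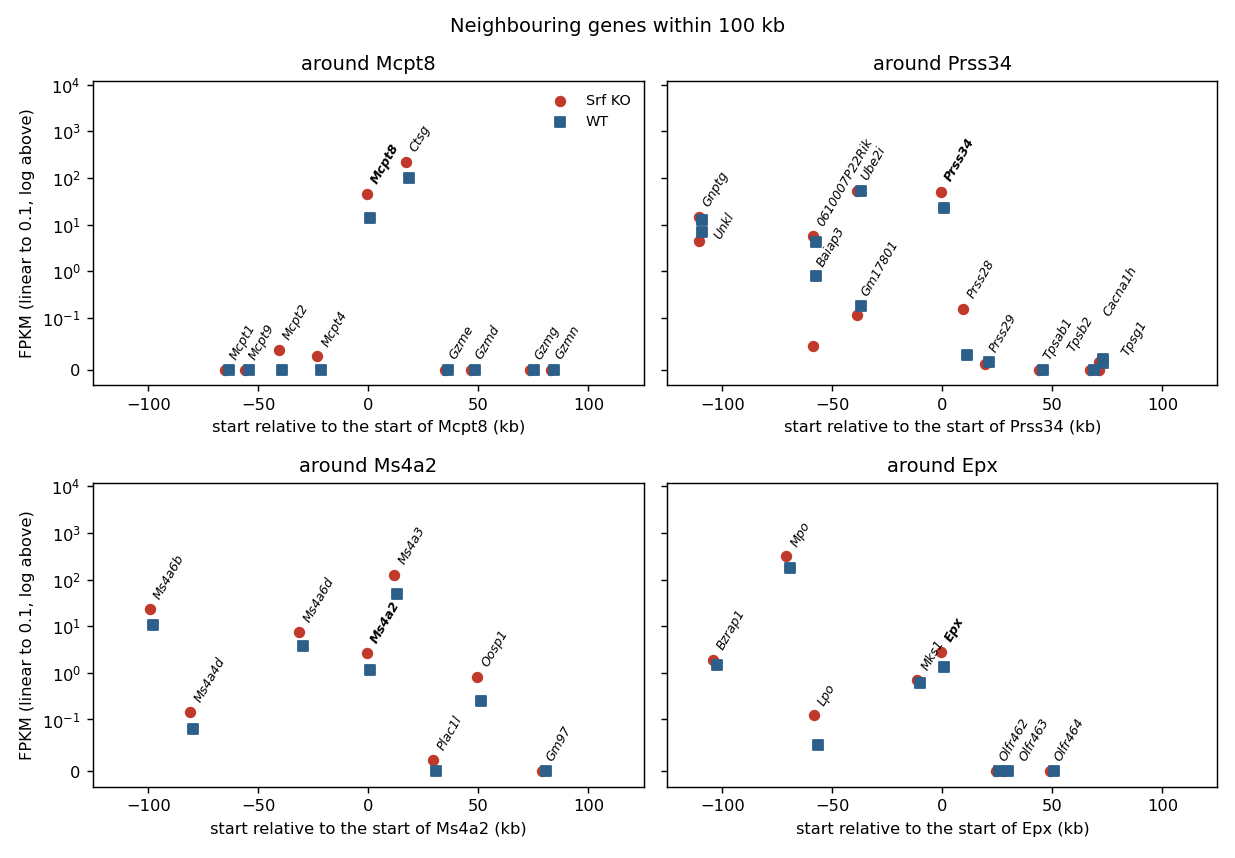
FPKM (linear to 0.1, log above) of the genes within 100 kb of Mcpt8, Prss34, Ms4a2 and Epx, by the distance between starts in kb, Srf KO as circles and WT as squares. The other proteases around Mcpt8 and Prss34 lie at or near 0 apart from Ctsg, whereas the tested neighbours of Ms4a2 all lie higher in Srf KO.

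Further genes of these cells were taken from 8 lists, holding 92 genes of the table, of which 72 were tested. In all, 24 of the 72 were called higher and 17 lower, with a median log2 fold of 0.24, against 17.7% higher, 17.8% lower and a median of 0.08 over all tested genes. Adjusted for transcript length, 20 were called higher and 21 lower, against 14.6% higher and 18.4% lower over all tested genes so adjusted. The balance between the directions turned, and over all tested genes it shifted the same way. Of the other eosinophil granule genes, 3 of the 4 tested passed as higher and none as lower, against the same 17.7% and 17.8% of all tested genes. The eosinophil-associated ribonuclease gene Ear2 was at 210 FPKM in Srf KO and 105 FPKM in WT (log2 fold 0.99 ± 0.21), and Ear1 at 27.8 FPKM in Srf KO and 13.0 FPKM in WT (1.10 ± 0.24), in the authors' deposited table. Ear10 was called higher too (0.68 ± 0.25). After length adjustment the log2 folds were 0.61 for Ear2, 0.72 for Ear1 and 0.31 for Ear10, and the call of Ear10 ended, which left 2 of the 4 called. The Ear genes are near-identical copies, so their reads cannot be assigned to a single gene with certainty.

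Surface and cytokine receptor genes of eosinophils split, with 3 of 12 tested called higher and 3 lower, against 17.7% and 17.8% of all tested genes. Ccr3, the eotaxin receptor of eosinophils and basophils, rose to 2.83 FPKM in Srf KO, against 1.02 FPKM in WT (log2 fold 1.47 ± 0.27, adjusted p = 1.05e-06 in the authors' deposited table). Also higher were the leukotriene receptor gene Cysltr2 (1.82 ± 0.60) and the adhesion receptor gene Emr4 (1.11 ± 0.24). Csf2rb, the beta chain that signals for interleukin 5, interleukin 3 and GM-CSF and that neutrophils also express, fell to 50.1 FPKM in Srf KO, against 113 FPKM in WT (-1.18 ± 0.18). It has a near copy, Csf2rb2, picked out after its values were seen. Csf2rb2 was called lower as well, at 11.2 FPKM in Srf KO and 21.2 FPKM in WT (-0.92 ± 0.19). The most abundant gene of the list, Cd24a, was not called (0.19 ± 0.20). Siglec5, the symbol used in the table for the eosinophil lectin gene Siglecf, was at 3.77 FPKM in Srf KO and 5.52 FPKM in WT and was not called (-0.55 ± 0.24, adjusted p = 0.0576 in the authors' deposited table). Siglec5 was picked out after its values were seen, and adjusted for transcript length it was called lower (-0.64).

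Of 14 tested receptor genes of basophils and mast cells, 8 were higher and 1 lower, against 17.7% and 17.8% of all tested genes. Cd200r3, an activating receptor of basophils and mast cells, was at 1.59 FPKM in Srf KO and 0.560 FPKM in WT (log2 fold 1.50 ± 0.42, adjusted p = 0.00226 in the authors' deposited table). Higher too were the integrin genes Itga2b (1.45 ± 0.26) and Itga2 (1.43 ± 0.47), the alpha 2 chain used as the basophil marker CD49b, and the activation marker gene Cd69 (1.42 ± 0.28). Itga2b is at the same time a megakaryocyte gene, and Itga2 and Cd69 are also expressed by NK and T cells. Kit and Ccr2, also called higher, are among the progenitor and the monocyte markers below as well. The gene called lower was Il4ra, at 11.9 FPKM in Srf KO and 29.0 FPKM in WT (-1.29 ± 0.19). Il3ra (-0.30 ± 0.28), Il1rl1 (0.38 ± 0.28) and Cd200r1 (-0.12 ± 0.21) were not called. Kit, Ccr2, Il4ra, Il3ra, Il1rl1 and Cd200r1 were picked out after their values were seen. The most abundant gene of the list, the tetraspanin gene Cd9, was not called (-0.32 ± 0.18), though it was called lower after length adjustment (-0.62). That adjustment also ended the higher calls of Cd63 (0.13) and Cd200r4 (0.55), and with it Crlf2 was called lower (-0.65).

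Downstream of the IgE receptor, 5 of 12 tested genes were called higher and 6 lower, against 17.7% and 17.8% of all tested genes. The adaptor gene Lat (log2 fold 1.84 ± 0.31) and the Src family kinase gene Fyn (1.33 ± 0.24), both also T cell genes, rose. The lipid phosphatase gene Inpp5d (-1.02 ± 0.18) and the phospholipase gene Plcg2 (-1.01 ± 0.18), both widely expressed in myeloid cells, fell. Lat was at 4.75 FPKM in Srf KO and 1.33 FPKM in WT, and Plcg2 at 48.9 FPKM in Srf KO and 98.7 FPKM in WT, in the authors' deposited table.

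Genes of amine storage, proteoglycan and eicosanoids had 1 of 7 tested called higher and 2 lower, against 17.7% and 17.8% of all tested genes. Hpgds, the haematopoietic prostaglandin D synthase of mast cells, rose to 1.42 FPKM in Srf KO, against 0.432 FPKM in WT (log2 fold 1.72 ± 0.31). Srgn, the serglycin core protein on which granule proteases and histamine are stored in many leukocytes, was at 321 FPKM in Srf KO and 700.4 FPKM in WT (-1.13 ± 0.18). The 5-lipoxygenase gene Alox5 was at 92.6 FPKM in Srf KO and 210 FPKM in WT (-1.18 ± 0.18), and its partner gene Alox5ap, the most abundant of the list, was not called (-0.20 ± 0.20). Adjusted for transcript length, Alox5ap was called lower (-0.50).

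Of 5 tested genes of the cytokine list, Ccl9 was called higher (log2 fold 0.72 ± 0.19) and Csf1 lower (-0.66 ± 0.28, adjusted p = 0.04996 in the authors' deposited table). The shares over all tested genes were 17.7% higher and 17.8% lower. After length adjustment Csf1 was no longer called (-0.61), and Ccl3 was called lower (-0.89). Il13, a signature cytokine of basophils and mast cells picked out after its values were seen, was listed at 0 in both genotypes. Of 18 tested transcription factor genes of these lineages, 3 were higher and 4 lower, against the same 17.7% and 17.8%. Gata1, the partner of Gata2 in eosinophils and mast cells and a factor of red cells and megakaryocytes, was at 1.62 FPKM in Srf KO and 0.451 FPKM in WT (1.84 ± 0.37, adjusted p = 7.29e-06 in the authors' deposited table). Ikzf2 rose (1.36 ± 0.30), Stat5b (-1.17 ± 0.20) fell, and Sfpi1, the older symbol of the PU.1 gene, was at 177 FPKM in Srf KO and 364 FPKM in WT (-1.04 ± 0.18). The other called genes of this list, picked out after their values were seen, were Irf8, higher (0.79 ± 0.19), and Mitf and Trib1, both lower. Mitf was at 1.21 FPKM in Srf KO and 2.33 FPKM in WT (-0.95 ± 0.30), and Trib1 had a log2 fold of -0.58 ± 0.19.

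**Figure D4:**
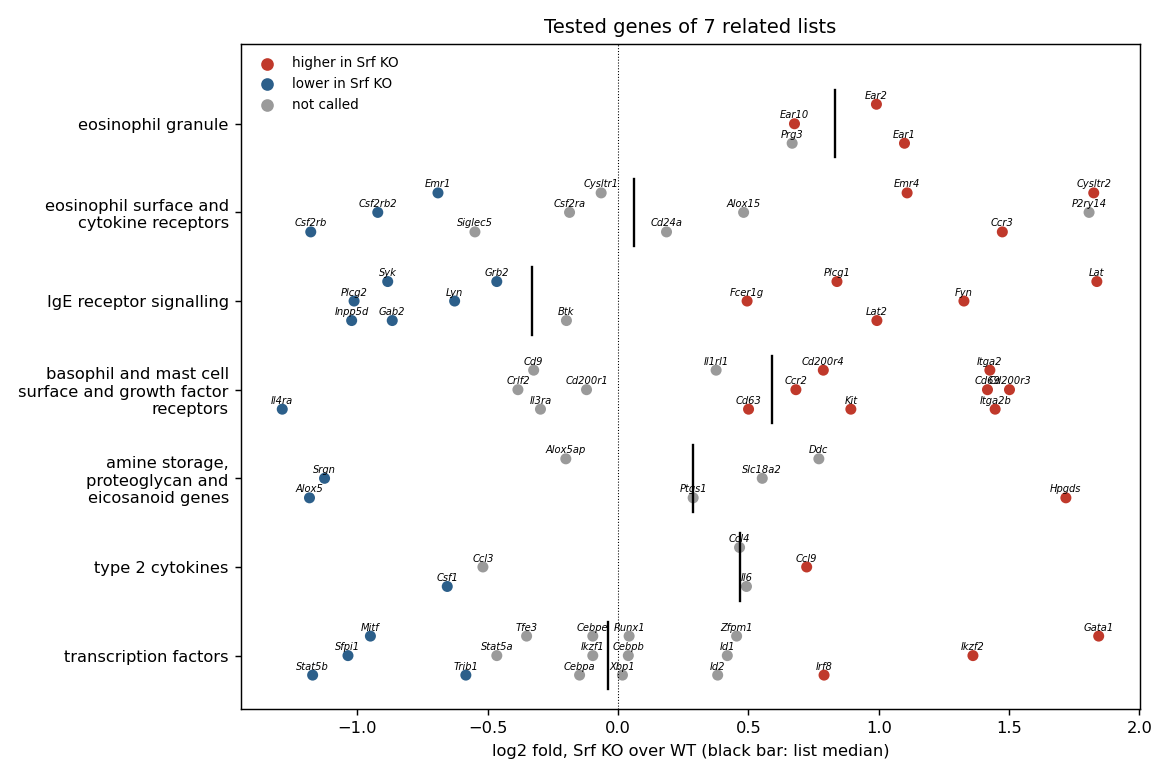
Log2 fold (Srf KO over WT) of each tested gene in the 7 related lists that have a tested gene, coloured by the authors' call, with the list median as a black bar. Eosinophil granule genes lie above 0, while receptor and IgE signalling genes lie on both sides.

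Markers of other cell types were read in the same table. Their counts stand against 17.7% called higher and 17.8% lower over all tested genes. Of the neutrophil markers, 6 were tested, of which 5 were called lower and 0 higher, and they summed to 19990.4 FPKM in Srf KO and 31008.1 FPKM in WT. Retnlg, which was not called, made up most of both sums, at 17116.9 FPKM in Srf KO and 24805.2 FPKM in WT. A further 5 neutrophil markers were listed as having too many reads. For myeloid progenitors and promyelocytes, 6 of 8 tested markers passed as higher and 0 as lower, with sums of 981 FPKM in Srf KO and 536 FPKM in WT. Among T and NK cell markers 6 of 7 passed as higher (sums of 45.8 FPKM in Srf KO and 20.0 FPKM in WT), among B cell markers 3 of 5 (133 FPKM in Srf KO and 89.9 FPKM in WT) and among erythroid markers 4 of 6 (248 FPKM in Srf KO and 163 FPKM in WT), with 0 lower in each list. Of the megakaryocyte and platelet markers 5 of 7 passed, all as higher, summing to 49.1 FPKM in Srf KO and 6.21 FPKM in WT. Pf4 alone was at 39.2 FPKM in Srf KO and 2.68 FPKM in WT. Of 9 macrophage and monocyte markers, 6 were higher and 2 lower, with sums of 1727 FPKM in Srf KO and 1288 FPKM in WT. Most of these sums was Ly6c2, not called, at 1544 FPKM in Srf KO and 1144 FPKM in WT. Most of the erythroid sums was Hbb-b2, not called, at 158 FPKM in Srf KO and 128 FPKM in WT. With length adjustment the calls of Itgam, Cd79b and Gp9 ended, and Retnlg was called lower. No tested marker of these lists was at 0. The median log2 fold of the basophil and mast cell genes, 1.35, lay between those of B cell markers, 0.58, and erythroid markers, 1.90. Their part in the changes of the 10 genes was not tested.

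**Figure D5:**
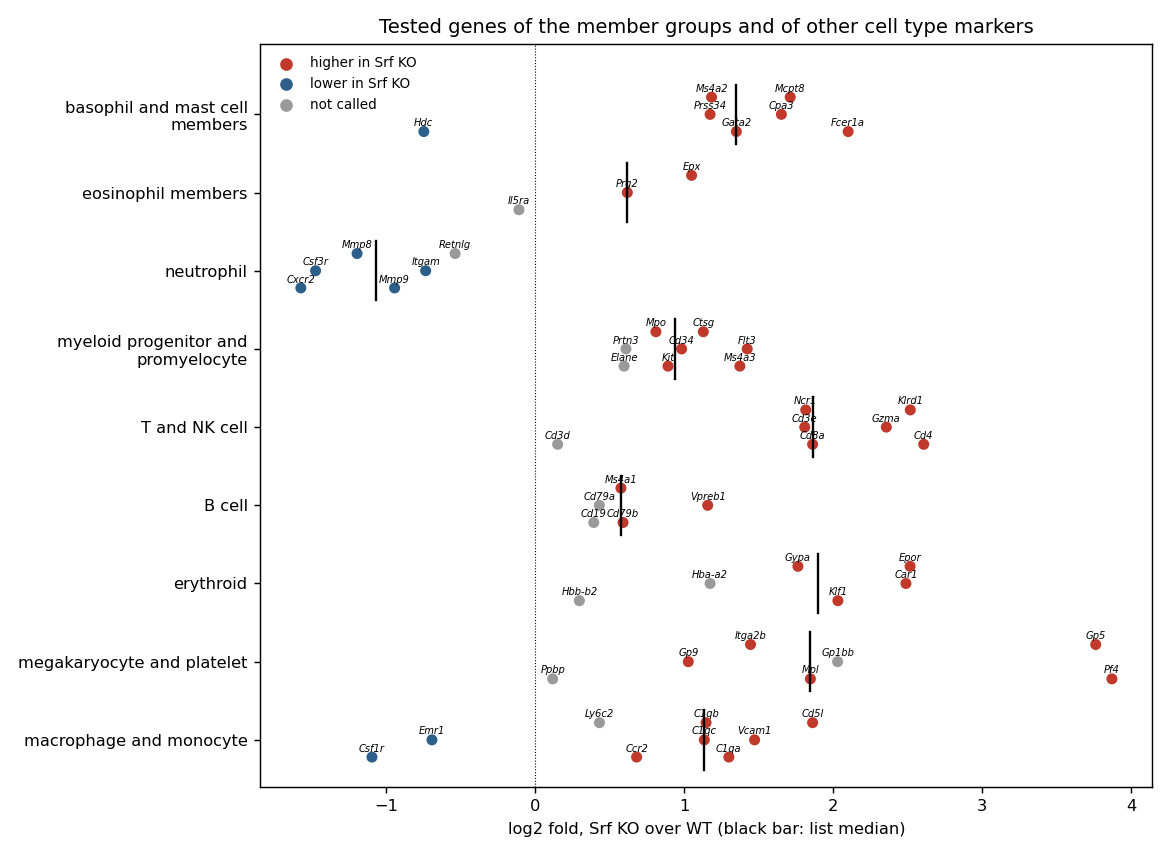
Log2 fold (Srf KO over WT) of the basophil and mast cell genes, the eosinophil genes and markers of 7 other cell types, coloured by the authors' call, with the list median as a black bar. Neutrophil markers lie below 0, and the medians of the other lists lie above 0.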

How the data were processed

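The labels' protocols name the TruSeq RNA Sample Prep Kit v2, which does not keep the strand. Per the submitters' processing notes, the tools were Cufflinks 2.0.0, TopHat2 2.0.0 and CASAVA 1.8.1, on mm10. Settings are not given in the sources used here. The authors deposited FPKM, 1 value per genotype, for genes, isoforms, start groups and coding sequences, so per-sample values, depth and replicate error were not used here, and the authors' own test stands in for a fit to samples. The deposited log2 fold is WT over KO; its sign was turned to Srf KO over WT. The test statistic is the authors' deposited score, with their p-value and their adjusted p (q-value), which was checked to be the Benjamini-Hochberg adjustment over tested rows. The implied standard error is the absolute fold divided by the absolute statistic.

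The 10 genes, the related lists and the marker lists were chosen with earlier results of these data known, so their counts are descriptions. All 10 genes were named, and of each related list up to 4 called genes with the largest fold at 0.1 FPKM or more and the most abundant gene. Ear3 and Ear6 were not analysed here, and older symbols were matched through RefSeq. Alternatives were thresholds of 0.01 and 0.1, a 2-fold minimum, a filter at 1 FPKM, log2(FPKM + 1) and log2(FPKM + 0.1), centring on the median, the other 3 tables, sums without the most abundant gene, and an adjustment for transcript length by the running median over 50 bins, smoothed over 5. Lengths, strands, exons and Ensembl identifiers came from GENCODE M21 (GRCm38, the assembly of mm10), with a length for 99.1% of 12552 genes. Deposited starts count from 0 and are printed counting from 1. The computation was tested on simulated data. Software was scipy 1.17.1, pandas 2.3.3, numpy 2.4.6 and matplotlib 3.10.9 under Python 3.11.15.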

Additional observations from a re-analysis of the deposited data

How the results depend on the processing

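The count of 8 genes called higher was 7 with a 2-fold minimum and 6 after adjustment for transcript length, and it stayed within 1.5 times under the other thresholds, the 1 FPKM filter and centring. It was 5 in the isoform, start group and coding sequence tables, where Mcpt8, Prss34 and Cpa3 were not tested. The single gene called lower, Hdc, was lost with a 2-fold minimum (0 genes), because its fold is 1.68. With that minimum the related genes called higher numbered 13 in place of 24, and those called lower 8 in place of 17. The shares over all tested genes with that minimum were 7.16% and 6.45%. Adjusted for transcript length they numbered 20 higher and 21 lower, against 14.6% higher and 18.4% lower over all tested genes so adjusted. The summed level of the basophil and mast cell genes turned direction with the genes included: the ratio of 0.848 became 2.72 without Hdc and 2.72 without Gata2 and Hdc. The median log2 fold of the 10 genes was 0.75 on the log2(FPKM + 1) scale, which shrinks the folds of genes near 1 FPKM. No fold of the 10 genes changed sign under the pseudocount of 1, centring or length adjustment. No paired analysis was possible because each genotype has 1 pooled value, and for the same reason no sample could be left out.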

Other observations

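Among genes of these cells that the authors did not test, values were low in both genotypes. Gpr44, the older symbol of the prostaglandin D2 receptor gene Ptgdr2 of basophils, eosinophils and type 2 lymphocytes, was at 0.107 FPKM in Srf KO and 0.0168 FPKM in WT. The histamine H4 receptor gene Hrh4 was at 0.182 FPKM in Srf KO and 0.0515 FPKM in WT. Prss28, a serine protease gene 8.48 kb from Prss34, is not in the lists of these cells. Also untested, Prss28 was at 0.157 FPKM in Srf KO and 0.0285 FPKM in WT. Not every untested gene was higher in Srf KO. Ltc4s was at 0.0492 FPKM in Srf KO and 0.143 FPKM in WT, and Il4 was similar, at 0.121 FPKM in Srf KO and 0.101 FPKM in WT. All of these genes were picked out after their values were seen, and no test is available for them.

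Baiap3, 42.0 kb from Prss34 and picked out after its values were seen, was at 0.0451 FPKM in Srf KO and 0.774 FPKM in WT (log2 fold -4.10 ± 1.05, adjusted p = 0.000699 in the authors' deposited table), while Prss34 itself rose.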
